A study of Rattus norvegicus with 3 samples.

Results

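Downhill and uphill treadmill running were compared through the RNA of blood mononuclear cells from rats, with 1 array for each kind of running. The members are the 2 arrays labelled downhill and uphill, of 3 in the series, and the control array enters no comparison. It was used only in an alternative that picks the probe set brightest over all 3 arrays. The genes are those that 1 gene symbol names on the array, with the probe set (a group of short probes for 1 transcript) brightest over both arrays standing for a gene that has several. This left 13893 genes, of which 7222 were counted because their brighter value reached 348.3, the median of the gene intensities over both arrays. The other 6671 genes stayed below that floor on both arrays. A gene that reached the floor on only 1 array was counted through its higher side.

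All animals were male Sprague-Dawley rats, an outbred laboratory strain, aged 2 months. One group ran downhill on a treadmill and the other uphill. How many rats an array stands for, the slope, speed and length of the runs, and when blood was drawn are all not given in the sources used here. In the labels, the protocol speaks of cells taken from a mixture and does not say what was mixed. The array was the Affymetrix Rat Expression Array 230 2.0, which reads a transcript near its 3′ end.

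Blood mononuclear cells are the lymphocytes and monocytes that stay at the top of a density gradient, while red cells and granulocytes sink. Lymphocytes include T cells, B cells and natural killer cells, and monocytes are the blood precursors of many tissue macrophages. Downhill running loads muscle through lengthening contractions, the kind best known for muscle damage and soreness, and uphill running through shortening contractions. Preparations of these cells commonly carry some platelets, young red cells that still hold globin RNA (reticulocytes) and neutrophils.

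With 1 array on each side there was no spread between replicates, so no difference has a test, and every value describes this pair of arrays and not the kinds of running in general. Differences are given as downhill minus uphill on the log2 scale or as ratios of the 2 intensities. A ratio is given as "at least" where the array's detection call did not name the dimmer value present, and no ratio is given where the brighter value was not called present. In RNA from a mixture of cells, fewer cells of a type and less RNA per cell cannot be told apart.

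The arrays were alike in their overall measures. Over 31099 probe sets the median intensity was 219.3 downhill and 216.5 uphill, with present calls for 52.4% and 54.4%. Actin gave a ratio of its 3′ to its 5′ probe set, a measure that grows as RNA is broken, of 2.87 downhill and 2.68 uphill. For GAPDH the ratios were 1.20 and 1.32. Spike-in RNAs of E. coli and phage P1, 18 probe sets, differed by a median of 0.083, from -0.48 to 0.25, and 9 probe sets of B. subtilis spike-ins by a median of -0.13, from -0.35 to 0.081.

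The label of the cells was checked against marker lists. Of the markers on the array, 17 of 20 T cell genes, 12 of 14 B cell genes, 15 of 16 natural killer genes and 17 of 22 monocyte genes reached the floor. So did 13 of 15 platelet, 18 of 26 erythroid and 11 of 15 neutrophil genes. Of all 13893 genes, 7222 reached the floor on at least 1 array. Some erythroid and neutrophil members did so on the uphill array only, such as Slc4a1 and Pglyrp1. None of 10 basophil and mast cell genes reached it, and 3 of 12 skeletal muscle genes did, of which only Tnnt3, a fast muscle troponin, was called present on both arrays.

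Across the 7222 genes the downhill and uphill arrays were close. The median difference was -0.03, the median absolute difference was 0.17, a ratio of 1.13, and 95% of genes differed by less than 0.56, a ratio of 1.48. On the downhill array 24 genes, 0.332% of those counted, were higher by 2-fold or more, and 39 genes, 0.54%, were lower by that much. Together they are 63 genes, 0.872% of those counted. A difference of 3-fold or more was seen in 6 higher genes (0.0831%) and 23 lower genes (0.318%), and one of 1.5-fold or more in 322 genes either way (4.46%). Of the lower genes 17 differed by at least 4-fold, against 1 of the higher genes. Just inside the threshold lay Bst2 at a ratio of 2.01 and, on the log2 scale, Gabbr1 at -1.03, and just outside it, on the same scale, Cfb at 0.99 and Pde6h at -0.97.

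**Figure D1:**
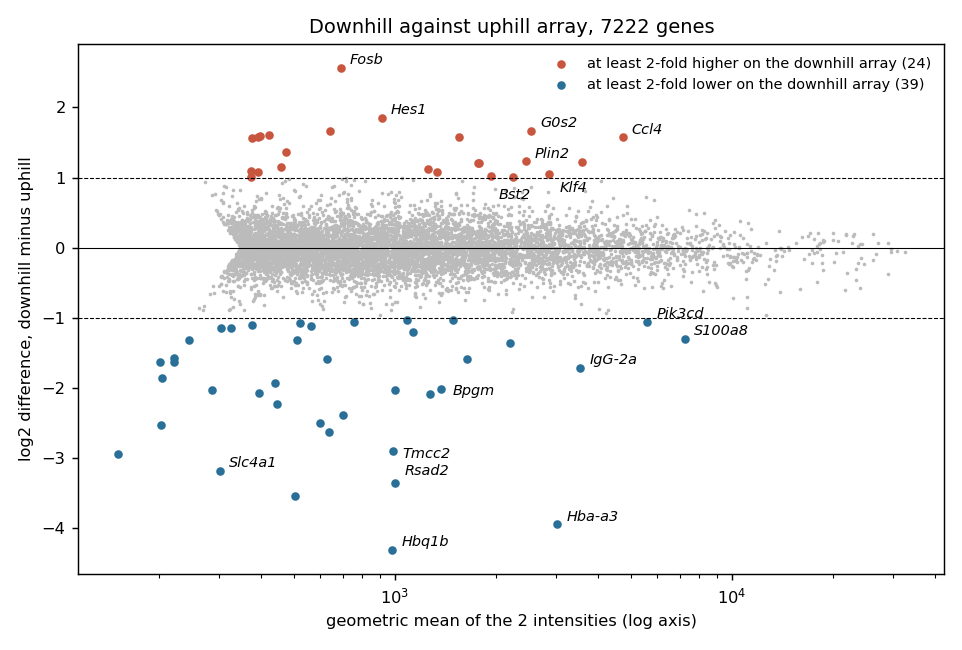
Log2 difference of downhill minus uphill (vertical axis) against the geometric mean of both intensities (horizontal log axis) for 7222 genes. Red marks the 24 genes that were higher by 2-fold or more downhill, and blue the 39 that were lower by as much. The lower points reach further from 0 than the higher ones, and most grey points lie close to 0 at every brightness.

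The gene groups that stood furthest from 0 were the red cell and neutrophil genes, most of them lower on the downhill array, and the immediate early genes, most of them higher. Promoters of 7 genes from these groups and from the interferon response are shown for the letters they hold just upstream of the gene. They come from RefSeq (build GRCr8) and run from 250 bases before to 50 after the start of the gene. Capitals mark the motif named for each gene. Hba-a3 (alpha globin), at chr10:15816894-15817193 on the minus strand, has TATAAA and CCAAT in capitals. Alas2 (haem synthesis), at chrX:22895200-22895499 on the plus strand, has AGATAA, a core that GATA factors bind. Rsad2 at chr6:48788071-48788370, Bst2 at chr16:18254918-18255217 and Irf7 at chr1:205799974-205800273, all on the minus strand, have the core of the interferon-stimulated response element, GAAA, any 2 bases and GAAA again. Fosb (immediate early), at chr1:88089135-88089434 on the minus strand, also holds that core. Maff (immediate early), at chr7:112792537-112792836 on the plus strand, has TGACGTCA, the cyclic AMP response core.
Hba-a3: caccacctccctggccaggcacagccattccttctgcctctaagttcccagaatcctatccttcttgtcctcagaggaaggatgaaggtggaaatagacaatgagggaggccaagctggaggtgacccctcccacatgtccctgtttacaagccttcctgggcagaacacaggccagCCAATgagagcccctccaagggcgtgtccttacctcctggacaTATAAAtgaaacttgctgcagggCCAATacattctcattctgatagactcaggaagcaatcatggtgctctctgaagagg
Alas2: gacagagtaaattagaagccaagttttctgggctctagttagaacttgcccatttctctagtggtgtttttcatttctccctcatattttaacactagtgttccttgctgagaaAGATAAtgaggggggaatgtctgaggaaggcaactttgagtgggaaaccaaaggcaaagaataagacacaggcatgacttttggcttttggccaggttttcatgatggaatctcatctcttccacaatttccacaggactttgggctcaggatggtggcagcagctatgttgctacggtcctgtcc
Rsad2: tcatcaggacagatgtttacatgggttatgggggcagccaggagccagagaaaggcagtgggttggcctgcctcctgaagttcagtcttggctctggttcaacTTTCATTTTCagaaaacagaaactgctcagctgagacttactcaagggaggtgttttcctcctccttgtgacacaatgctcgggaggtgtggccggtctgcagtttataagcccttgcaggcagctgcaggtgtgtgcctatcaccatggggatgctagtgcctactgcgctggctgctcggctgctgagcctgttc
Bst2: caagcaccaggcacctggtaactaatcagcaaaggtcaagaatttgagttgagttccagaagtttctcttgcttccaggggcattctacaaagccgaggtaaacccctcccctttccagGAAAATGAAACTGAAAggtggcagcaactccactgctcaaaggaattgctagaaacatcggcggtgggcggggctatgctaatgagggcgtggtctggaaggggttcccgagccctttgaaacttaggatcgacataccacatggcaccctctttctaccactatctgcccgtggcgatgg
Irf7: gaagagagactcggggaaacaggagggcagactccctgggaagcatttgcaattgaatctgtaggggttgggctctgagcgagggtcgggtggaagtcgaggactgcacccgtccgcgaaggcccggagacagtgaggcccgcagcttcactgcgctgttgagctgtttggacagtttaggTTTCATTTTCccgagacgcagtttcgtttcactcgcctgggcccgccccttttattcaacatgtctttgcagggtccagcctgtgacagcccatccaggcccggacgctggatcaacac
Fosb: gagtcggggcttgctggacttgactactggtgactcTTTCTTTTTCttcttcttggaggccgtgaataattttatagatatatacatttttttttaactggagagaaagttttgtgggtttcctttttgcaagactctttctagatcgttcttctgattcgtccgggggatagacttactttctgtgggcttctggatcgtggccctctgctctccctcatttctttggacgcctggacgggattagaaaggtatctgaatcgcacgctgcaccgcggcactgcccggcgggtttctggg
Maff: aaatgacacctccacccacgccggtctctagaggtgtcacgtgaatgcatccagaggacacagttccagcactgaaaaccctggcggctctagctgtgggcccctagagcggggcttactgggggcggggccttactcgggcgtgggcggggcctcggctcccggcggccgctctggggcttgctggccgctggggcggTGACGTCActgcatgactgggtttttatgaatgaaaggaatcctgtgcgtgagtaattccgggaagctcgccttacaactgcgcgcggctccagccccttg
Where a match lies on the other strand, its complement stands in capitals, as in Rsad2, Irf7 and Fosb.

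Red cell genes were among the lowest of the comparison, and 11 of the 39 lower genes stand in the erythroid, reticulocyte or haem lists. These lists have 18, 24 and 14 counted members, some of them shared, of 7222 counted genes. Of the 18 counted genes in the erythroid list, 16 were lower on the downhill array and 9 of them at least 2-fold, against 53.9% and 0.54% of all counted genes. The list's median was -0.99, against -0.03 for all counted genes. Of the 18, 10 were called present on both arrays. The summed intensity of the 18 was 13252 downhill and 37997 uphill. The globin probe sets lay at the far end. Hbq1b, a theta globin listed in the file as LOC100361053, read 220.3 downhill and 4380.2 uphill, at least 19.9-fold lower. Hba-a3, an alpha globin chain whose promoter is printed above, read 772 and 11906, a difference of at least 15.4-fold. Neither was called present on the downhill array and both were called present on the uphill array. In the files' build, Rnor3.4, they lie near each other on chromosome 10, Hba-a3 at 15558729 to 15559510 and Hbq1b at 15581390 to 15582086. Hbe1, an embryonic globin, read 148 and 1728 and was called present on neither array, so no ratio is given.

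Probe sets shared by several globin genes were outside the gene counts and were lower too. There were 6 of them above the floor, for Hba-a2, Hbb and related loci, all called present on both arrays. Their intensities were 718 to 3998 downhill and 15829 to 33326 uphill. The highest uphill value, of an Hba-a2 probe set with a ratio of 8.33, was the highest intensity on either array. The ratios ran from 7.90 to 22.1 and the median difference was -3.78. Probe sets for near-identical globin genes share transcripts, so they are not separate measurements.

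Genes that build haem and load it into globin were lower in several places. Fech, ferrochelatase, which puts iron into haem, read 251 downhill and 1423 uphill, 5.68-fold lower. Alas2, the first enzyme of haem synthesis in red cells, read 383 and 829, 2.16-fold lower. Ahsp, a chaperone for free alpha globin, read 325, not called present, and 809, at least 2.49-fold lower. The wider list of haem synthesis and iron genes was less one-sided. Of its 14 counted genes 9 were lower and 5 higher, against 53.9% and 46.1% of all counted genes, with a median of -0.14. Slc25a39, a mitochondrial carrier, read 1165 and 1772 (-0.61), and Blvra, biliverdin reductase, which acts in haem breakdown, read 1886 and 1314 (0.52).

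Membrane and enzyme genes of the red cell followed the same order of the 2 arrays. Slc4a1, the band 3 anion exchanger, read 101 downhill, not called present, and 914 uphill, at least 9.07-fold lower. Its second probe set, below the floor, read 205 and 254, a difference of -0.31, so the size for Slc4a1 rests on the choice of probe set, and with the brightest probe set over all 3 arrays Slc4a1 is not counted. Bpgm, the red cell mutase that makes a regulator of haemoglobin's oxygen affinity, read 682 and 2766, 4.06-fold lower. Its second probe set read 518 and 2577, a difference of -2.31, close to the first at -2.02.

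Genes of reticulocyte maturation were lower in 18 of 24 cases, with a median of -0.27 and 3 at least 2-fold lower, against 53.9% and 0.54% of all counted genes. Bpgm is one of the 3. Tmcc2, a transmembrane protein, read 363, not called present, and 2699, at least 7.44-fold lower. Selenbp1, a selenium-binding protein, read 83.8, not called present, and 485, at least 5.79-fold lower. Smaller differences were seen in Gclm (-0.71) and Ulk1 (-0.68), which act in glutathione synthesis and autophagy, and in Prdx2 (-0.52), a peroxidase abundant in red cells. The 6 higher genes were led by Ube2l6, an enzyme that attaches the interferon-induced modifier Isg15, at 0.50.

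Several other erythroid list genes lay nearer 0. Gata1, a transcription factor of red cell precursors and platelet precursors, read 527 and 491 (0.10), and Gfi1b, a repressor of the same cells, 725 and 773 (-0.09). Tfrc, the transferrin receptor, differed by -0.22 and Gypc, glycophorin C, by -0.05. Epor, the erythropoietin receptor, read 855 and 626 (0.45) and was called present on neither array. These 5 were the highest members of the erythroid list. Klf1, Epb42, Sptb, Ank1, Rhd, Car1 and Hbe2 were among those below the floor on both arrays.

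**Figure D2:**
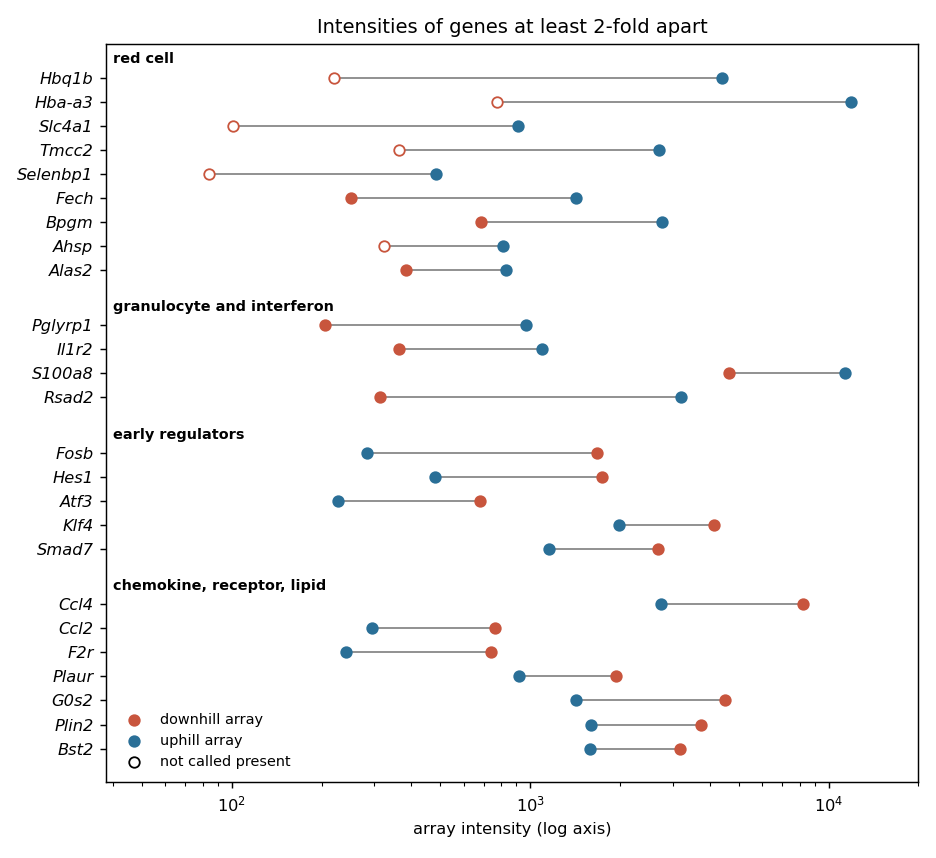
Intensity on the downhill array (red) and the uphill array (blue) on a log axis for 25 of the genes at least 2-fold apart. Open points were not called present. Red cell, granulocyte and Rsad2 points lie to the left on the downhill array, and the early regulators, chemokines and lipid droplet genes lie to the right.

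Granulocyte genes were lower as well. Of 11 counted neutrophil list genes 9 were lower, 7 of them at least 1.5-fold and 3 at least 2-fold, with a median of -0.81. Over all counted genes 53.9% were lower, 2.31% at least 1.5-fold and 0.54% at least 2-fold. Pglyrp1, a granule protein that binds bacterial peptidoglycan, read 206 and 969, 4.70-fold lower. Il1r2, a decoy receptor for interleukin-1, read 363 and 1095, 3.02-fold lower. S100a8, a calcium-binding protein abundant in neutrophils and monocytes, read 4622 and 11388, 2.46-fold lower. Its partner S100a9 read 9009 and 17578 (-0.96), so both subunits of the pair were lower. The granule genes Camp (-0.84) and Mmp8 (-0.81) were also lower, and Mmp8 sets the list median. Pglyrp1, Camp and Mmp8 reached the floor only on the uphill array, so they are counted through their higher side. Fcnb, a ficolin, and Slpi, a protease inhibitor, were the 2 higher members, at 0.53 and 0.49. Of the 4 members below the floor, Mmp9, Cxcr2, Lcn2 and Padi4, none enters these counts.

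Monocyte genes leaned the other way. Of 17 counted genes 12 were higher on the downhill array, as were 46.1% of all counted genes, with a median of 0.24 and a summed intensity of 90032 against 81926. Clec4a1, a lectin receptor, differed by 0.68, Aif1, an actin-binding protein of macrophages, by 0.67, and Fcgr1a, a high-affinity receptor for IgG, by 0.54. Other markers differed less, with Cd14, the co-receptor for endotoxin, at 0.18, Csf1r, the receptor for macrophage colony-stimulating factor, at 0.05 and Lyz2, lysozyme, at -0.05.

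All 12 counted B cell genes were lower on the downhill array, with a median of -0.35 and a range from -0.69 to -0.01. Over all counted genes 53.9% were lower by any amount. Vpreb3, a protein that assembles with the B cell receptor chains, read 900.2 and 1456. Fcer2, the low-affinity receptor for IgE, read 645 and 985, and Cd79b, a signalling chain of the B cell receptor, 2003 and 2915. None of the 12 differed by as much as 2-fold, and Ms4a1, which encodes CD20, was nearly level at 3241 and 3267. The summed intensity of the list was 17695 downhill and 21885 uphill.

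T cell and natural killer genes showed no such lean. Of 17 T cell genes 6 were higher and 11 lower, against 46.1% and 53.9% of all counted genes. Their median was -0.07, with no member past 1.5-fold. The ends of the list were Il7r, the interleukin-7 receptor, at -0.43, and Bcl11b, a T cell transcription factor, at 0.27. Of 15 natural killer genes 8 were higher and 7 lower, with a median of 0.05 that turned to -0.03 with a floor at the 75th percentile. Faslg, the ligand that triggers death through Fas, read 1581 and 982 (0.69), and Ccl5, a chemokine of cytotoxic cells, 19330.1 and 24816 (-0.36). Platelet genes were lower in 12 of 13 cases, against 53.9% of all counted genes, but by little, with a median of -0.15. The platelet end was Nrgn, a calmodulin-binding protein, at -0.62 and Itgb3, an integrin chain, at -0.52, while Pf4, platelet factor 4, differed by -0.06.

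**Figure D3:**
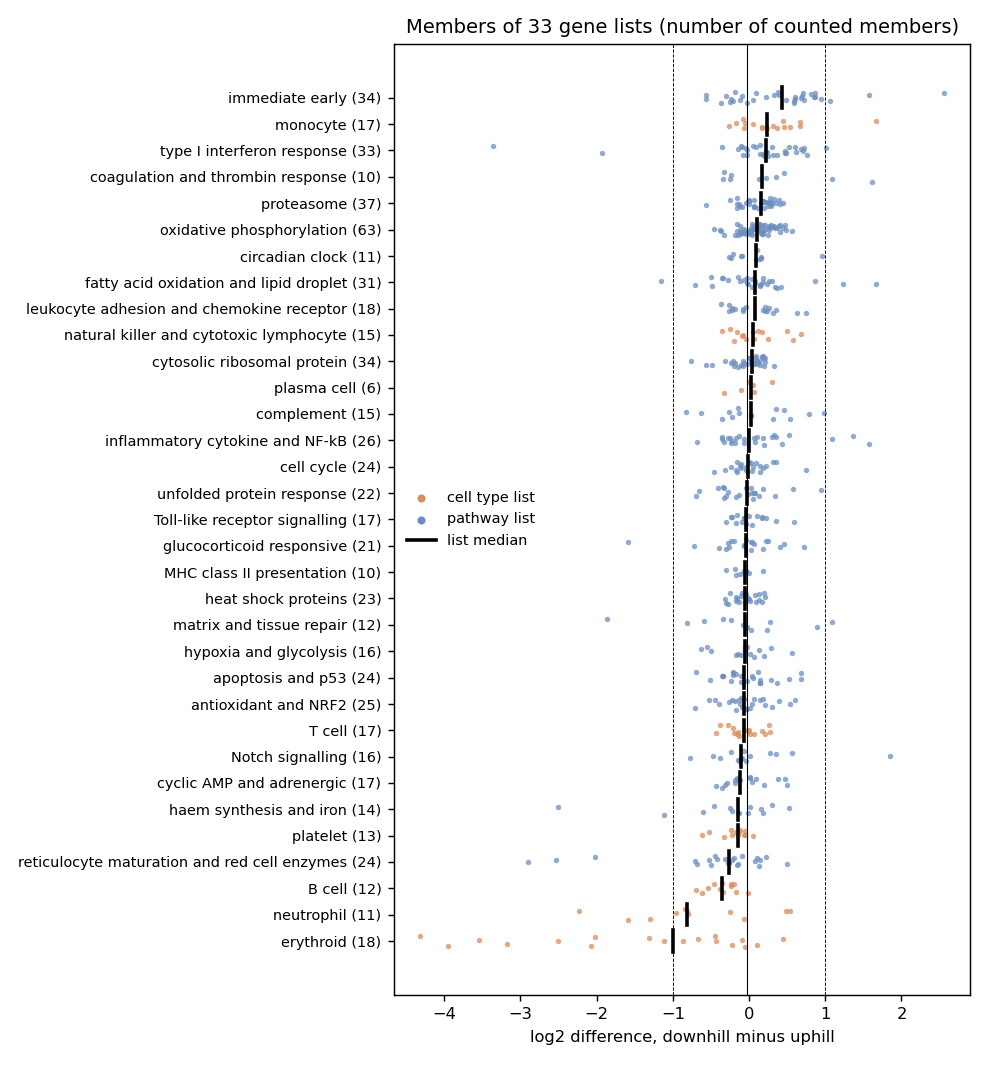
Log2 difference of downhill minus uphill for each counted member (points) of 33 gene lists with at least 5 counted members, ordered by list median (black bars). Orange points are cell type lists and blue points pathway lists. The erythroid and neutrophil medians, -0.99 and -0.81, are the lowest, and the immediate early median, 0.44, is the highest.

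Immediate early genes, which cells switch on within minutes of a stimulus without new protein, were mostly higher on the downhill array. Of 34 counted genes 23 were higher and 11 lower, and the median was 0.44. At least 1.5-fold higher were 15 of them and at least 2-fold higher 3, while none was 1.5-fold lower. Over all counted genes 46.1% were higher, 2.15% at least 1.5-fold and 0.332% at least 2-fold. Fosb, a subunit of the AP-1 transcription factor, listed in the file as LOC100360880, read 1677 and 284, 5.90-fold higher. It was the only gene at least 4-fold higher. Atf3, a stress-induced factor of the same wider family, read 678 and 227, 2.98-fold higher. Klf4, a zinc finger factor active in monocytes, read 4132 and 1987, 2.08-fold higher. Fosb and Atf3 reached the floor only on the downhill array, so they are counted through their higher side.

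Below 2-fold, the early genes of several kinds lay on the same side. Rhob, a small GTPase, read 2199 and 1141 (0.95), Gadd45b, a stress sensor, 3411 and 1874 (0.86), and Tob1, an antiproliferative protein, 2310.5 and 1271 (0.86). Nuclear receptors Nr4a1 (0.85) and Nr4a3 (0.59), AP-1 subunits Jun (0.69) and Fosl2 (0.82), and Krüppel-like factors Klf2 (0.68), Klf6 (0.60) and Klf10 (0.71) were among the 15. Egr1, a zinc finger factor often used as the model early gene, was at 0.40.

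Some early genes lay on the other side. Zfp36l1, which speeds mRNA decay, read 5128 and 7616 (-0.57), and its relative Zfp36 -0.37. Myc, a growth regulator, read 1562 and 2301 (-0.56). Within the AP-1 family, then, Fosb, Fosl2 and Jun were higher, while Junb was near level at -0.12 and Jund at 0.22. Among the MAP kinase phosphatases, Dusp2 and Dusp6 were at 0.72 and 0.58, and Dusp1 and Dusp5 at -0.31 and -0.25. The monocyte list also leaned higher on the downhill array, while the neutrophil and erythroid lists were lower. Any part of these cell types in the early gene differences was not tested.

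Type I interferon response genes split. Of 33 counted genes 23 were higher on the downhill array and 10 lower, with a median of 0.22, while 46.1% of all counted genes were higher. At least 1.5-fold higher were 7 (2.15% of all counted genes) and at least 1.5-fold lower 2 (2.31%). The 2 largest differences lay on the other side. Rsad2 (viperin), which blocks virus replication, read 313 downhill and 3201 uphill, 10.2-fold lower, and was called present on both arrays. It has 1 probe set, at chromosome 6, 44100772 to 44113910 on the minus strand in Rnor3.4. Ifih1, the RNA sensor MDA5, read 225 and 861 but was called present on neither array.

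The higher interferon genes differed by less, from Ifit1 at 0.05 upward. Bst2 (tetherin), which holds budding virus at the cell surface, read 3178 and 1584, 2.01-fold higher. Oasl, of the oligoadenylate synthetase family, read 1968 and 1162 (0.76), Rtp4 2887 and 1749 (0.72), and Irf7, a transcription factor that amplifies interferon production, 5657 and 3462 (0.71). Ifi44 (0.68), Usp18 (0.61) and Ifit2 (0.60) completed the 7. Other classical members were higher by less, with Isg15, a ubiquitin-like modifier, at 0.47 and Mx1, an antiviral GTPase, at 0.31. Rsad2 thus lay on the other side of 0 from Isg15, Mx1 and Ifit2, which interferon also induces. Mnda, a nuclear protein of the interferon-inducible PYHIN family that is listed in the file as Ifi204, was outside the list and read 2689.6 and 1169, 2.30-fold higher.

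**Figure D4:**
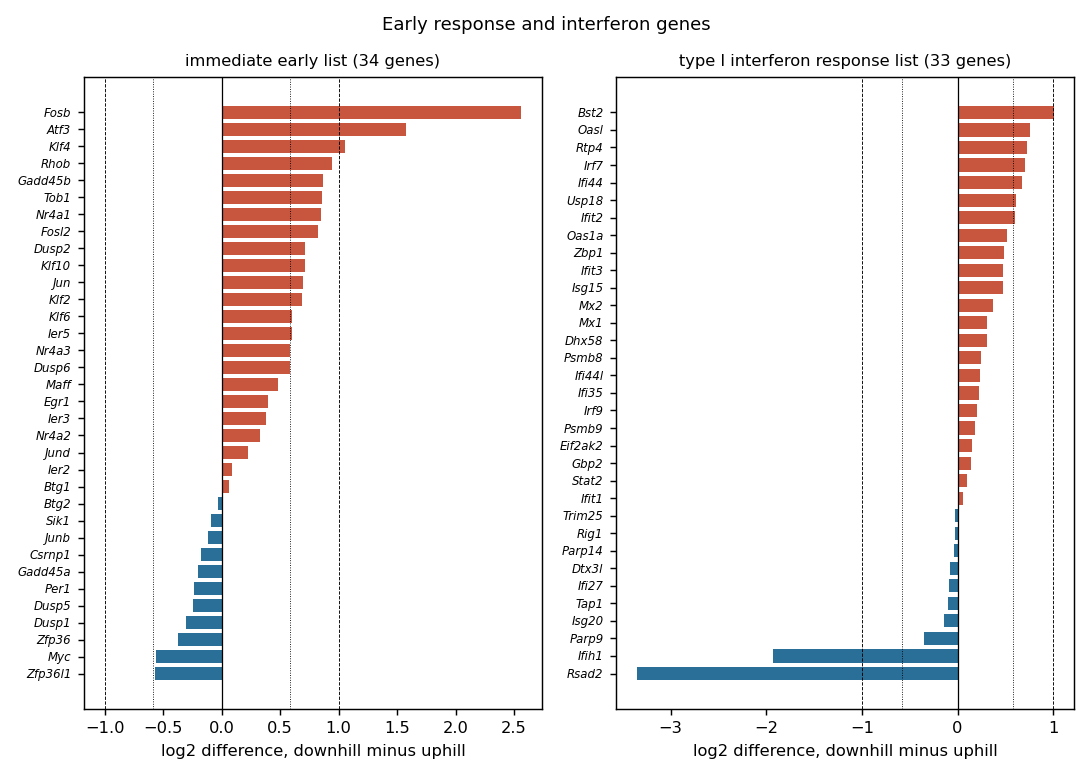
Log2 difference of downhill minus uphill for each counted gene of the immediate early list (left, 34 genes) and the type I interferon response list (right, 33 genes). Bars start at 0, dotted lines mark 1.5-fold and dashed lines 2-fold. Fosb leads the left panel at 2.56, and Rsad2 reaches -3.35 on the right, where 23 genes are higher.

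The printed promoters were read against 11 motifs searched on both strands in the RefSeq promoters of 5921 counted genes. The interferon core (GAAA, any 2 bases, GAAA) stood in 3.77% of all 27457 promoters, in 3.36% of the counted genes and in 16 of 24 interferon list genes with a promoter, 66.7%. The genes holding it did not share a direction, since 9 were higher and 7 lower, and of the 8 without it 6 were higher and 2 lower. Both Rsad2 and Bst2 hold it, 147 bases before the start in Rsad2 and at 131 and 125 in Bst2, on opposite sides of the comparison. TGACGTCA stood in 1.91% of all promoters, 3.29% of counted genes and 5 of 26 early genes, 19.2%. Those 5, Btg2, Dusp1, Ier2, Jund and Maff, ranged from -0.31 to 0.48, and none was 1.5-fold higher, against 10 of the 21 without it.

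Red cell promoters were examined with AGATAA, present in 11.3% of all promoters, 5.88% of counted genes and 3 of 14 erythroid genes, and CCAAT, present in 37.7%, 38.3% and 8 of 14. All 8 erythroid genes holding CCAAT were lower, and so were 4 of the 6 without it. In Hba-a3 the motif TATAAA lies 30 bases before the start. The shares of all promoters for the other motifs were 14.3% for TATAAA, 7.33% for TGANTCA (AP-1), 29.8% for CCACCC, 8.22% for TGACGT, which lies within TGACGTCA, and 71.9% for the ends of a CArG box, CC, any 6 bases and GG. A consensus NF-kB site stood in 0.0947% and a serum response element, 1 case of the CArG form, in 0.0401%. A match describes letters in the window and shows no binding. The motifs discussed and the promoters printed were chosen after the matches and the values had been seen. Of the 63 genes past 2-fold, 45 have a promoter in the table.

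Chemokine genes lay on both sides of 0. Ccl4, which draws monocytes and T cells, read 8182 and 2749, 2.98-fold higher. Ccl2, a chemoattractant for monocytes, read 765 and 296, 2.58-fold higher. The related Ccl3 was higher by less, at 6948 and 5154 (0.43). Cxcl2, a neutrophil chemoattractant, was lower, at 565 and 906 (-0.68), as was Ccl5 at -0.36. Cxcl10 (0.07) and Cxcl16 (0.10) were near level. The inflammatory cytokine and NF-kB list as a whole was balanced, with 13 of 26 higher, 13 lower and a median of 0.0014. Among all counted genes 46.1% were higher. Ccr1, the receptor for Ccl3, was at 0.75 in a list of adhesion and chemokine receptor genes with 9 higher and 9 lower.

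Receptors and factors of coagulation and matrix repair stood at both ends. F2r, the main thrombin receptor of many cells, read 739 and 242, 3.06-fold higher. Plaur, the urokinase receptor, read 1937 and 915, 2.12-fold higher, and stands in the cytokine, matrix and coagulation lists. Col1a1, a chain of type I collagen, read 107 and 388, 3.64-fold lower, and its second probe set, below the floor and not called present, differed by 0.59 the other way. Of 10 coagulation genes 6 were higher, and of 12 matrix genes 5 were higher, with medians of 0.18 and -0.05. Among all counted genes 46.1% were higher. The matrix median turned to 0.24 with a floor at the 75th percentile.

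Lipid droplet and fatty acid genes stood on both sides. G0s2, an inhibitor of the triglyceride lipase that Pnpla2 encodes, read 4502 and 1421, 3.17-fold higher. Plin2, a coat protein of lipid droplets, read 3739 and 1593, 2.35-fold higher, and its other probe sets differed by 0.51 and 1.42 the same way. Dgat2, the last enzyme of triglyceride synthesis, read 205 and 455, 2.22-fold lower. Pnpla2 itself was at -0.50, Fabp5, a fatty acid carrier, at 0.86 and Acsl5, which activates fatty acids, at -0.71. The list had 18 higher and 13 lower genes, against 46.1% and 53.9% of all counted genes. Its median was 0.08, which turned to -0.01 with a floor at the 75th percentile.

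Among the remaining higher genes were several regulators. Hes1, a repressor induced by Notch, read 1735 and 482, 3.60-fold higher. The other 15 Notch list genes had 4 higher and 11 lower, against 46.1% and 53.9% of all counted genes. Smad7, which inhibits TGF-beta signalling, read 2682 and 1159.8, 2.31-fold higher, and another probe set differed by 0.86 while one below the floor was at -0.29. Irs2, an adaptor of the insulin receptor, read 1849 and 849.99, 2.18-fold higher. Rgcc, a cell cycle regulator induced by complement, listed in the file as Rgc32, read 2669 and 893, 2.99-fold higher. Mex3b, an RNA-binding protein, read 649 and 219, 2.96-fold higher. These 5 were called present on both arrays.

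The other higher genes were mixed in kind. Frmd4b, a scaffold protein, read 691 and 229.9, 3.01-fold higher. Ubd, the ubiquitin-like modifier FAT10, read 681 and 308, 2.21-fold higher. Ctsl, the lysosomal protease cathepsin L, read 2757 and 1354, 2.04-fold higher. Rnase2, a ribonuclease known from eosinophil granules, was the counted member of the eosinophil list, at 547 and 256, 2.14-fold higher, while the other 6 stayed below the floor. LOC100912922, without a named function here, read 5454 and 2349, 2.32-fold higher. Twnk and LOC100909479 passed 2-fold without a present call on either array.

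Outside the red cell, granulocyte and interferon groups, the lower genes included 4 at least 4-fold lower and called present on the uphill array. RGD1564887, without a named function here, read 306 and 1607, 5.25-fold lower. Tldc2, listed in the file as RGD1561343, read 614 and 2619.8, 4.27-fold lower. Dusp12, a phosphatase, read 142, not called present, and 582, at least 4.11-fold lower. Pgrmc2, a haem-binding membrane protein, read 496 and 2026, 4.09-fold lower. For Pgrmc2 and RGD1564887 the other probe set above the floor differed by -0.09 and -0.23, so these 2 differences rest on 1 probe set each.

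Metabolic genes followed among the lower ones. Sephs2, which makes the selenium donor for selenoproteins, read 944 and 2829, a difference of -1.58. Isca1, an assembly factor for iron-sulfur clusters, read 1367 and 3526, 2.58-fold lower, but its other probe set was level at 1631 and 1612. Hagh, an enzyme of methylglyoxal removal, read 744 and 1713, 2.30-fold lower. Lss, lanosterol synthase of the cholesterol pathway, read 219 and 483, 2.20-fold lower, with its other probe set below the floor at -0.13.

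Signalling and trafficking genes lay close to the threshold. Pik3cd, the leukocyte catalytic subunit of PI 3-kinase, read 3889.9 and 8088, 2.08-fold lower, and its other probe set was at -0.70. Gbf1, an exchange factor for Golgi GTPases, read 524 and 1094, 2.09-fold lower, with another probe set at -0.66. Cdc25b, a phosphatase that activates cyclin-dependent kinases, read 1037 and 2121, 2.04-fold lower. The remaining 3 were Gprasp2 (-1.08), which sorts receptors to lysosomes, Cdr2 (-1.10) and Gabbr1 (-1.03), a subunit of the GABA-B receptor. The other Gabbr1 probe sets, 4 of them, lay below the floor, between -0.25 and 0.22.

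IgG-2a, the heavy chain of an antibody class, read 1958 and 6439, 3.29-fold lower, but its other probe set differed by -0.41. The 8 lower genes whose uphill value was not called present were Hbe1, Nphs1, Nr2e3, Ifih1, Wdpcp, Myo16, Hand1 and Alk. They are counted among the 39 and are given no ratio.

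Probe sets of the same gene give a measure of technical error beside the spike-in RNAs. They read the same RNA on the same array, so their gaps leave out animal and hybridization error. A further probe set reached the floor for 1268 genes, and these 1583 probe sets differed from the brightest by a median of 0.19, with a 95th percentile of 0.65. Of 55 such probe sets of genes past 1.5-fold, 47 had the same sign. Among the genes past 2-fold, 9 had another probe set above the floor. Both higher ones, Plin2 and Smad7, and 3 of 7 lower ones, Bpgm, Pik3cd and Gbf1, differed at least 1.5-fold the same way in another probe set. The other 4 were Isca1, IgG-2a, Pgrmc2 and RGD1564887.

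**Figure D5:**
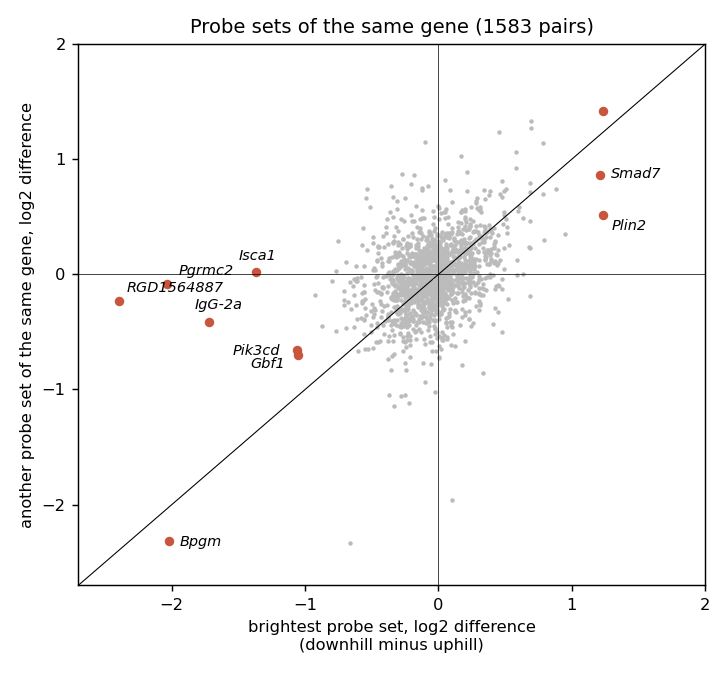
Log2 difference of downhill minus uphill by a gene's brightest probe set (horizontal) and by another probe set of the same gene (vertical), for 1583 pairs. The diagonal marks equal values and red points are genes past 2-fold. Bpgm, Smad7 and Plin2 lie on the same side by both, while Isca1, Pgrmc2 and RGD1564887 lie near 0 on the vertical axis.

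The dimmest genes held the most differences past 2-fold, but the counts did not fall steadily with brightness. Among the 1806 dimmest genes 9 were higher past 2-fold and 18 lower. The next 1805 had 3 and 6, and the 1805 after those 5 and 10. Among the 1806 brightest the counts were 7 and 5. The floor fixes part of the dim count. A counted gene needs a brighter value of 348.3, and the geometric means of the dimmest genes began at 150.4. A counted gene with so low a mean must differ past 2-fold, so no trend with brightness is drawn.

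Other pathways were close to level in their medians. Among all counted genes 46.1% were higher on the downhill array and 53.9% lower. Oxidative phosphorylation genes were higher in 43 of 63 cases with a median of 0.11 and none past 1.5-fold, from Ndufa1 at -0.45 to Ndufa6 at 0.56. Proteasome genes were higher in 27 of 37 with a median of 0.16, from Psme4 (-0.56) to Psmb7 (0.45). Cytosolic ribosomal protein genes had 19 higher and 15 lower, with Rps13 lowest at -0.76. Heat shock genes had 8 higher and 15 lower with a median of -0.05, and none passed 1.5-fold. That median turned to 0.01 after quantile normalization. MHC class II genes were lower in 9 of 10 with a median of -0.05, which turned to 0.02 after quantile normalization.

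Stress and hormone lists held single genes of note. Among all counted genes 46.1% were higher and 53.9% lower. Trib3, a pseudokinase of the unfolded protein response, read 1135 and 588 (0.95) in a list with 10 higher and 12 lower genes. Bhlhe40, a clock repressor, read 998 and 514 (0.96) among 11 clock genes, while Per1 was at -0.23. Of 21 glucocorticoid-responsive genes 10 were higher and 11 lower, with Txnip at -0.72, the metallothionein Mt1 at 0.72 and Fkbp5 at -0.40. Genes of the hypoxia and glycolysis list were lower in 10 of 16 cases, with Pkm at -0.56 and Aldoa at -0.50. Gapdh was at -0.63 by a control probe set of the array, and at -0.28 as the mean of its probe sets.

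Complement genes included Cfb, a protease of the alternative pathway, at 1480.1 and 746 (0.99), and C2, its counterpart in the classical pathway, at 2239.6 and 1303 (0.78). C3, the central component, was lower, at 667 and 1029 (-0.62). The 15 counted genes had 8 higher and 7 lower, against 46.1% and 53.9% of all counted genes.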

How the data were processed

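RNA of blood mononuclear cells was measured on 1 array per group. The intensity values were normalized by the authors with RMA, per the submitters' processing notes; the software behind it was not given in the sources used here. As deposited, each intensity is linear, from 1 to 33326 on these arrays, not on the log2 scale usual for RMA, and log2 was taken here without an offset. Detection calls (present, marginal, absent) come with each deposited value, by an algorithm not stated, and the annotation columns give alignments to Rnor3.4, per the file headers. The separate deposited value table held the same values within 1e-06 in all 31099 probe sets.

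Of the probe sets, 19628 carried 1 symbol, 800 several and 10671 none, and 19192 were matched by Entrez number to current RefSeq names (GRCr8). A brighter value at or above the floor of 348.3 (the median) was needed to count a gene. Genes at least 2-fold apart were named where the brighter array was called present, and up to 6 members of each of 37 lists. Some genes that meet this rule are not reported here. A ratio against a value not called present uses that value and is a lower bound. The members, lists and rule were chosen with earlier results of these data known. No test was possible with 1 array a side, and the number of arrays limits the precision. Sequences were matched by Entrez number. Python 3.11.15, pandas 2.3.3, numpy 2.4.6 and statsmodels 0.14.6 were used, and the steps were tested on simulated data. Alternatives were the floor, the fold, the probe set rule, the present call, an offset of 50, quantile normalization and cyclic loess (span 0.7, 3 rounds).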

Additional observations from a re-analysis of the deposited data

How the results depend on the processing

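The counts of genes at least 2-fold higher and lower on the downhill array, 24 and 39, were 42 and 59 with no floor and 15 and 21 with a floor at the 75th percentile, where fewer genes enter. They were 155 and 167 at 1.5-fold and 6 and 23 at 3-fold. The other alternatives gave 19 to 28 higher and 31 to 40 lower. With the mean of all probe sets of a gene, 21 of the 24 and 27 of the 39 were among the 24 and 32 counted. With the brightest probe set over all 3 arrays, the 34 lower genes counted were all among the 39. No gene past 2-fold with a present call turned direction under any of these alternatives. The medians of 33 lists were each read again under the alternatives, among them the second set of deposited values, which is the same. Of these repeated readings 325 stayed within 0.19, the median gap between probe sets, and 5 did not. The median of the erythroid list was -0.53 with no floor, -2.26 with the higher floor and -1.41 with the mean of probe sets. With the higher floor the median of the neutrophil list was -0.53 and the median of the matrix and tissue repair list 0.24, which turned from -0.05. For genes past 2-fold, likewise read again under the alternatives, 482 repeated readings stayed within that gap and 23 did not. The mean of probe sets moved 11, among them Smad7 to 0.59, Slc4a1 to -1.75, Gabbr1 to -0.20, Isca1 to -0.67 and Pgrmc2 to -0.73. An offset of 50, which by its construction shrinks differences of dim genes, moved 11, among them Fosb to 2.37, Rsad2 to -3.16, Hbq1b to -4.03 and Slc4a1 to -2.68. The cause was not tested. No paired analysis was possible because each group has 1 array. Leaving out a replicate was not possible either. Dim genes are limited by signal over background.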

Other observations

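Gene groups listed only after their values had been seen are given as values. Among all counted genes 46.1% were higher on the downhill array and 53.9% lower. Mitochondrial ribosomal protein genes (symbols starting Mrpl or Mrps) were higher on the downhill array in 57 of 71 cases, with a median of 0.16 against -0.03 for all counted genes, from -0.36 to 0.83. Mrpl1 read 2816 downhill and 1588 uphill. Cholesterol synthesis genes were higher in 12 of 16, with a median of 0.19. Msmo1, a sterol oxidase, read 1054 and 541 (0.96), Idi1, an isomerase of the isoprenoid precursors, 1573 and 808 (0.96), and Cyp51 1277 and 739 (0.79), while Lss was at -1.14. Inhibitors of DNA binding and of TGF-beta signalling were higher in 7 of 10, with Id3 at 680.2 and 346 (0.98) and Id2 at 4836 and 2770 (0.80). Selenium and iron-sulfur cluster genes had 7 higher and 11 lower, with Nfu1, which delivers iron-sulfur clusters, at 0.72 and Glrx5 at -0.54.

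Immunoglobulin probe sets, some of them shared by several loci, were lower on the downhill array in 13 of 15 cases. Their median was -0.40, from -1.72 to 0.27, while 53.9% of all counted genes were lower. Probe sets for Igh-6, the mu heavy chain, read 2985 and 5456 in one and 3079 and 4205 in another. Of 2361 probe sets above the floor with no gene symbol, 13 were at least 2-fold higher and 9 lower, and of 481 with several symbols 1 was higher and 7 lower, 6 of the 7 being the haemoglobin probe sets.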
